A study of Homo sapiens with 8 samples.

Results

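Respiratory complex I (NADH:ubiquinone oxidoreductase) is the entry point of the mitochondrial electron transport chain. Its catalytic core passes electrons from NADH through a flavin and a chain of iron-sulfur clusters to ubiquinone and pumps protons. The core is surrounded by accessory subunits, most of them small proteins encoded in the nucleus. Assembly factors build the complex in modules and are not part of the finished enzyme. The genes described here were those whose symbol starts with NDUFA, NDUFB, NDUFC, NDUFS, NDUFV or NDUFAF and a digit, with NDUFAB1. They were 49 of 13350 genes and 82 of 22468 transcripts listed. Of these genes, 39 were subunits and 8 were NDUFAF assembly factors. The other 2 loci were the read-through transcript NDUFC2-KCTD14 and the antisense RNA NDUFV2-AS1, which are not subunits.

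The cells were SW480, an established human colorectal cancer line, which the series text calls a breast cancer line. They stably expressed an shRNA against the RNA-binding protein RBMS1 or a control shRNA, and were treated with alpha-amanitin, an inhibitor of RNA polymerase II, at 10 µg/mL. The 4 groups were RBMS1 knockdown cells at 9 h and at 0 h and control cells at 9 h and at 0 h, with 2 libraries each of RNA depleted of ribosomal RNA. For RBMS1 the series text gives 2 shRNA clones and the labels' protocol 1 of them, so which clones the knockdown libraries carried is not settled. No label says whether the libraries of 1 group were separate cultures.

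The deposited data were 2 tables, 1 for each shRNA, each with 1 log2 fold change of 9 h over 0 h per RefSeq transcript. The libraries had already been combined, so read depth and replicate spread were unknown, and no difference below could be set against replicate error or tested. A negative value means that less of the transcript was left at 9 h, relative to the rest of the library. For a value above 0, a true gain and the loss of other RNA cannot be told apart. The direction was read from short-lived mRNAs. In the authors' deposited tables MYC was at −1.38 in knockdown cells and −1.44 in control cells. FOS was at −1.24 in knockdown cells and −1.61 in control cells and JUN at −0.81 in knockdown cells and −1.01 in control cells, also in the authors' deposited tables. RBMS1 itself was listed as a pair of transcripts, at −0.35 and −1.38 in the authors' deposited table for knockdown cells and at 0.09 and −0.37 in that for control cells. These are changes over time and say nothing of how far the knockdown lowered RBMS1. The tables hold no levels, so the cell type could be checked only by listing. Of 8 colon epithelial markers 6 were listed in knockdown cells and 8 in control cells, and of 12 markers of other cell types CD68 and LYZ were listed in both.

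The median relative level of complex I mRNAs was higher at 9 h than at 0 h of the transcription block with either shRNA. Gene values are means over the listed transcripts of a gene. The median over complex I genes was 0.35 in knockdown cells (48 genes) and 0.43 in control cells (49 genes), where the median over all genes was −0.05 in knockdown cells and −0.07 in control cells. In knockdown cells 41 of the 48 lay above 0, against 46.6% of all genes tested. In control cells 40 of the 49 lay above 0, against 45.9% of all genes tested. Large changes were few. In knockdown cells 3 of the 48 were at 1 or above (5.26% of all genes) and 0 at −1 or below (9.49%), and in control cells 2 were at 1 or above (4.84%) and 2 at −1 or below (10.7%). The counts at 1 or above are near the share over all genes. The 2 at −1 or below were NDUFAF5 and the antisense RNA NDUFV2-AS1, and with coding accessions alone there were 0.

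The quartiles of the subunits lay close together, though single gene values reached −0.79 and 2.94 in knockdown cells and 2.44 in control cells. The subunit median was 0.38 in knockdown cells, with quartiles of 0.26 and 0.49 over 38 genes, and 0.47 in control cells, with quartiles of 0.32 and 0.57 over 39 genes. Over all genes the quartiles were −0.47 and 0.30 in knockdown cells and −0.52 and 0.31 in control cells. In knockdown cells 34 of 38 subunits and in control cells 36 of 39 were above 0. Cytosolic ribosomal protein mRNAs, known for their long life, had close medians of 0.37 in knockdown cells and 0.41 in control cells over 83 genes.

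**Figure D1:**
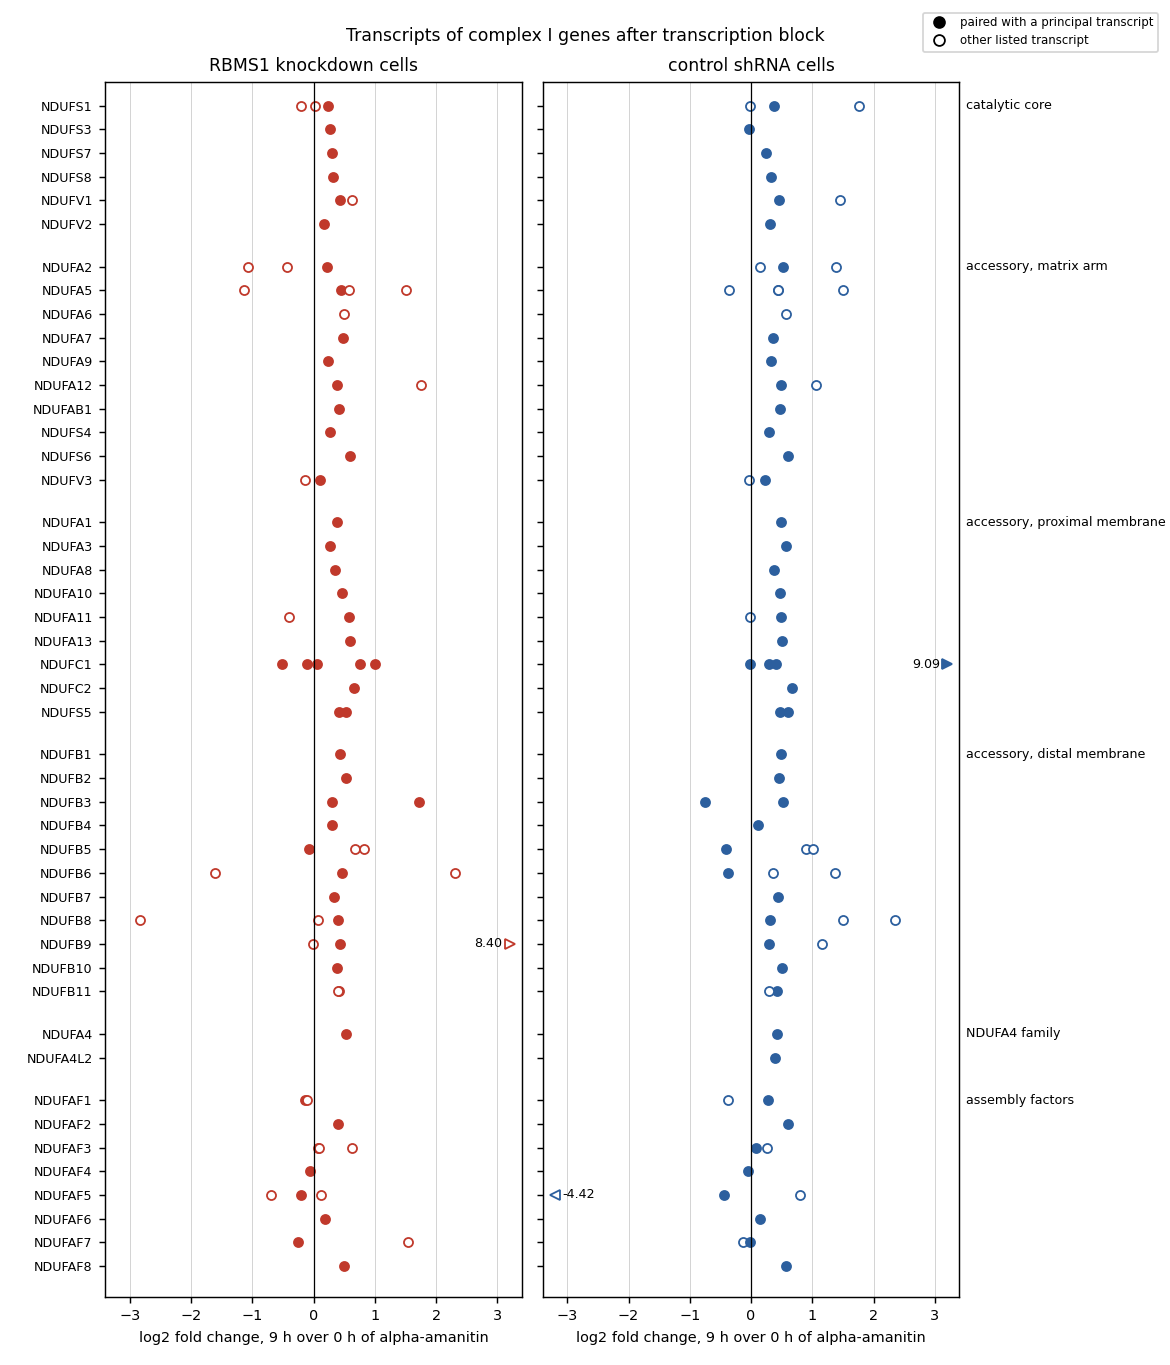
Log2 fold change, 9 h over 0 h of alpha-amanitin, of each listed transcript of complex I subunits and assembly factors (rows), in RBMS1 knockdown cells (left) and control cells (right), each point 1 deposited value with no error available. Filled points are paired with a GENCODE principal transcript and open points are other transcripts; arrowheads are off the axis, with their value beside them, and the filled points of most genes with 1 transcript lie between 0 and 0.7.

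The nuclear-encoded part of the catalytic core carries the flavin and the iron-sulfur clusters and binds ubiquinone. Its 7 members had a median of 0.27 in knockdown cells and 0.31 in control cells. NDUFV1, which holds the flavin that takes electrons from NADH, was the highest of the 7, with a mean over its transcripts of 0.53 in knockdown cells and 0.95 in control cells. NDUFS1, the largest iron-sulfur subunit, had a mean of 0.02 in knockdown cells and 0.70 in control cells. Its principal transcript NM_005006 was at 0.23 in knockdown cells and 0.37 in control cells and its NM_001199984 at −0.21 in knockdown cells and 1.76 in control cells in the authors' deposited tables. For NDUFS1 the tables were thus far apart in NM_001199984 alone.

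Other core subunits had 1 listed transcript. For NDUFV2, an iron-sulfur subunit, the authors' deposited tables gave 0.17 in knockdown cells and 0.31 in control cells. For NDUFS3, a subunit without a cluster, the authors' deposited tables gave 0.27 in knockdown cells and −0.04 in control cells. For NDUFS7, which carries the cluster next to ubiquinone, the authors' deposited tables gave 0.30 in knockdown cells and 0.24 in control cells. NDUFS8, another iron-sulfur subunit, was at 0.32 in both of the authors' deposited tables. These 4 genes were all above 0 in knockdown cells, and NDUFS3 was the one of them below 0 in control cells.

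Accessory subunits had similar medians wherever they sit in the complex. Those of the matrix arm, which protrudes from the inner membrane, had a median of 0.38 in knockdown cells and 0.49 in control cells (10 genes). Those of the proximal membrane arm had a median of 0.39 in knockdown cells and 0.51 in control cells (9 genes), and all 9 were above 0 with either shRNA. Those of the distal membrane arm had a median of 0.40 in knockdown cells and 0.45 in control cells (11 genes).

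Among accessory subunits with 1 transcript, a few matrix-arm and membrane-arm genes held the upper end. NDUFC2, of the membrane arm, was at 0.65 in knockdown cells and 0.66 in control cells in the authors' deposited tables. NDUFS6, a zinc-binding subunit of the matrix arm, was at 0.60 in knockdown cells and 0.61 in control cells in the authors' deposited tables. NDUFA13, also known as GRIM-19, was at 0.59 in knockdown cells and 0.51 in control cells in the authors' deposited tables. These genes were high in both tables and close between them, as was NDUFA6, of the matrix arm, at 0.49 in knockdown cells and 0.57 in control cells in the authors' deposited tables.

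NDUFV3 and NDUFA11 were among the 4 lowest accessory subunits in each table. The gene means of NDUFB8 and NDUFA2 in knockdown cells and of NDUFB3 in control cells were lower still and rest on transcripts that parted widely. NDUFV3 had a mean of −0.02 in knockdown cells and 0.10 in control cells. Its transcripts NM_001001503 and NM_021075 differed by at most 0.26 within a table. NDUFA11 had a mean of 0.10 in knockdown cells and 0.24 in control cells, its coding transcript lying at 0.58 in knockdown cells and 0.49 in control cells and its non-coding NR_034166 at −0.39 in knockdown cells and −0.01 in control cells in the authors' deposited tables. The coding transcript of NDUFA11 was thus above its gene mean. With 1 transcript each, NDUFB4 was at 0.31 in knockdown cells and 0.11 in control cells in the authors' deposited tables and NDUFS4 at 0.26 in knockdown cells and 0.30 in control cells. NDUFA9, a subunit that binds NADPH, was at 0.24 in knockdown cells and 0.32 in control cells in the authors' deposited tables. A further 9 accessory subunits, NDUFA1, NDUFA7, NDUFA8, NDUFA10, NDUFAB1, NDUFB1, NDUFB2, NDUFB7 and NDUFB11, had gene values between 0.33 and 0.52 in knockdown cells and between 0.35 and 0.49 in control cells.

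NDUFA4, first described as a complex I subunit and since assigned to complex IV, was at 0.54 in knockdown cells and 0.43 in control cells in the authors' deposited tables. Its hypoxia-induced relative NDUFA4L2 was listed for control cells alone, at 0.39 in the authors' deposited table.

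Assembly factors had lower medians than the subunits, and which group was more scattered depended on the measure. Their interquartile range was 0.49 in knockdown cells and 0.32 in control cells, against 0.22 and 0.25 for subunits. Their standard deviation was 0.32 in knockdown cells and 0.61 in control cells, against 0.54 and 0.45 for subunits. The median of the 8 NDUFAF genes was 0.22 in knockdown cells, with 5 above 0, and 0.05 in control cells, with 4 above 0. The median of the subunits exceeded that of the assembly factors by 0.16 in knockdown cells and 0.42 in control cells. With principal transcripts alone it exceeded it by 0.38 in knockdown cells and 0.31 in control cells. With genes of 1 listed transcript alone it did so by 0.09 in knockdown cells (22 subunits against 4 assembly factors) and 0.08 in control cells (23 against 4). The size of this gap therefore rests on which transcripts are counted. Genes are not replicates, so the gap was not tested.

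The assembly factors differed among themselves. NDUFAF8, the partner of NDUFAF5, had values like those of subunits, at 0.50 in knockdown cells and 0.57 in control cells in the authors' deposited tables. So had NDUFAF2, a paralog of the subunit NDUFA12, at 0.39 in knockdown cells and 0.60 in control cells in the authors' deposited tables. NDUFAF3 and NDUFAF4, which act together on the ubiquinone-binding module, were lower. NDUFAF3 had a mean of 0.26 in knockdown cells and 0.17 in control cells. NDUFAF4 was at −0.06 in knockdown cells and −0.05 in control cells and NDUFAF6 at 0.19 in knockdown cells and 0.14 in control cells in the authors' deposited tables. The 4 assembly factors with 1 transcript, NDUFAF2, NDUFAF4, NDUFAF6 and NDUFAF8, thus ranged from just below 0 to the level of the higher subunits.

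The remaining assembly factors had transcripts that differed. NDUFAF1, a member of the complex that builds the membrane arm, had a mean of −0.13 in knockdown cells and −0.05 in control cells. In control cells its coding NM_016013 was at 0.28 and its non-coding NR_045620 at −0.38 in the authors' deposited table. In knockdown cells they were at −0.14 and −0.12 in the authors' deposited table. NDUFAF7, a mitochondrial methyltransferase, had its principal transcript NM_144736 at −0.25 in knockdown cells and −0.02 in control cells in the authors' deposited tables. Its NM_001083946 was at 1.53 in knockdown cells and −0.13 in control cells in the authors' deposited tables. NDUFAF5, which hydroxylates NDUFS7, had its principal transcript NM_024120 at −0.20 in knockdown cells and −0.44 in control cells in the authors' deposited tables. The non-coding NR_029377 of NDUFAF5 was at −0.70 in knockdown cells and −4.42 in control cells and NM_001039375 at 0.12 in knockdown cells and 0.79 in control cells in the authors' deposited tables. The NDUFAF5 mean of −1.35 in control cells therefore came from 1 non-coding transcript.

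In the other respiratory complexes, too, subunit medians were above those of assembly factors. Complex II subunits had a median of 0.39 in knockdown cells and 0.28 in control cells (4 genes). Complex III subunits had 0.37 in knockdown cells and 0.30 in control cells (9 genes), complex IV subunits 0.45 in knockdown cells and 0.46 in control cells (10 of 14 on the list) and complex V subunits 0.40 in knockdown cells and 0.50 in control cells (17 genes). Assembly factors of complexes II to V had a median of 0.12 in knockdown cells and 0.14 in control cells over 35 genes. A further 12 complex I assembly factors without an NDUFAF symbol had a median of 0.17 in knockdown cells and 0.19 in control cells.

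Single genes of these lists ranged further, and those named are the lowest and the highest of each list by the mean of both tables over transcripts in both. SDHC of complex II, with 1 transcript, was at 0.41 in knockdown cells and −0.60 in control cells in the authors' deposited tables, and SDHD had a mean of 0.37 in knockdown cells and 0.57 in control cells. In complex III, UQCRB had a mean of 0.21 in knockdown cells and −0.57 in control cells and UQCRH of 0.55 in knockdown cells and 0.51 in control cells. In complex IV, COX7C was at 0.37 in knockdown cells and 0.25 in control cells in the authors' deposited tables and COX7A2 had a mean of 0.51 in knockdown cells and 0.80 in control cells. In complex V, the ATP synthase, ATP5F1A had a mean of −0.50 in knockdown cells and −0.72 in control cells and ATP5MK of 1.70 in knockdown cells and 1.08 in control cells. Of the complex I assembly factors with other names, TMEM186 was lowest by that mean, at −1.37 in knockdown cells and −0.89 in control cells, and DMAC1 highest by it, at 0.32 in knockdown cells and 0.31 in control cells, in the authors' deposited tables. Of the assembly factors of complexes II to V, COX18 had a mean of 0.31 in knockdown cells and −2.25 in control cells over all its transcripts and PET100 of 1.65 in knockdown cells and 0.33 in control cells.

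Regulators of respiratory genes lay lower than the subunits. Their median was −0.15 over 7 genes in knockdown cells and −0.43 over 8 genes in control cells. GABPB1, a subunit of the transcription factor NRF-2, had a mean of −1.97 in knockdown cells and −1.11 in control cells, and ESRRA, a nuclear receptor, of 0.37 in knockdown cells and 2.10 in control cells. Of the 7 complex I subunits encoded by mitochondrial DNA, none was listed in either table.

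**Figure D2:**
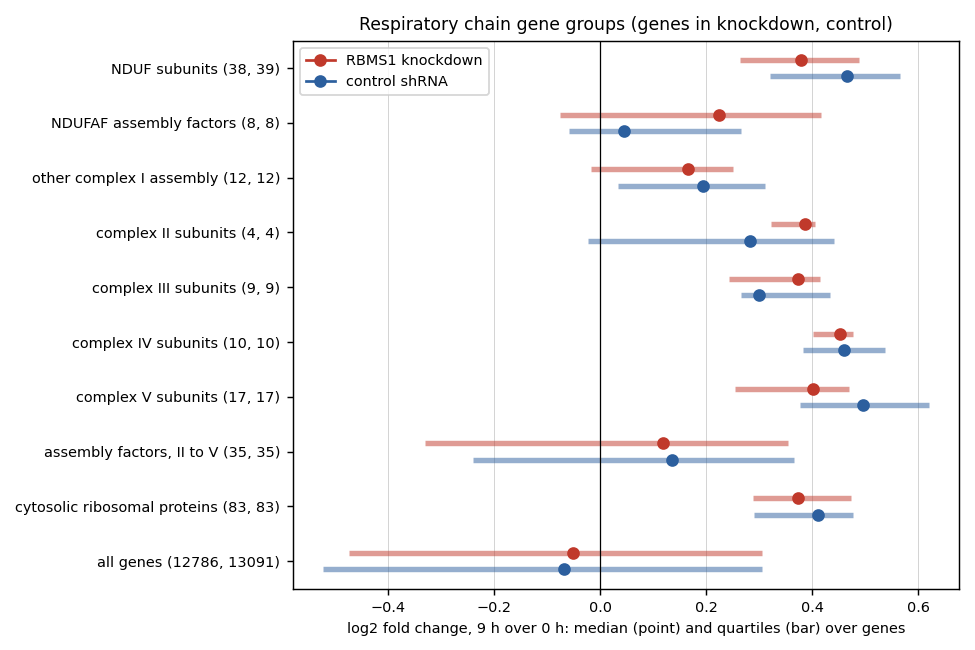
Median (point) and quartiles (bar) over genes of the log2 fold change, 9 h over 0 h, for gene groups of the respiratory chain, cytosolic ribosomal proteins and all genes, with RBMS1 knockdown cells above control cells in each row and the number of genes in brackets. Subunit medians lie between 0.28 and 0.50, assembly factor medians between 0.05 and 0.22, and the medians of all genes just below 0.

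The difference between the cell populations addresses whether stability changed when RBMS1 was knocked down. It is the knockdown value minus the control value over transcripts in both tables, averaged per gene and centred on its median over all 12480 genes in both, which was −0.02. Complex I genes had a median near 0. Their median centred difference was −0.01 over 48 genes, that of the subunits −0.04 (38 genes) and that of the assembly factors 0.04 (8 genes). By place it was 0.02 in the nuclear-encoded core, −0.05 in the matrix arm, −0.05 in the proximal and −0.04 in the distal membrane arm. Of the 48 genes, 33 had a centred difference of 0.2 or less in size, against 49.1% of all genes. At 1 or above were 3 (4.87% of all genes) and at −1 or below 3 (4.16%), each close to the share over all genes. A centred difference of 0.2 or less in size was not particular to complex I. It was found in 61 of 83 cytosolic ribosomal protein genes and 3 of 4 complex II subunits. So it was in 7 of 9 subunits of complex III, 9 of 10 of complex IV and 11 of 17 of complex V.

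Genes with 1 listed transcript differed little between the cell populations. Among those, 19 of 22 subunits and 4 of 4 assembly factors were within 0.2 of 0, against 57.7% of all genes with 1 transcript. The subunit values ran from −0.27 to 0.32. At the lower end was NDUFA3, of the membrane arm, at 0.27 in knockdown cells and 0.56 in control cells in the authors' deposited tables, which is named because of its value. At the upper end was NDUFS3, described above. Of these 22 subunits 0 were at 1 or more in size, against 4.5% of all genes with 1 transcript.

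The differences of 1 or more in size all came from genes with several transcripts or from the antisense RNA. NDUFB3 had a centred difference of 1.15 and NDUFAF5 of 1.11. NDUFB8 was at −2.16, NDUFC1 at −2.10 and NDUFA2 at −1.09, and the next in size among accessory subunits were NDUFB9 at −0.50 and NDUFA12 at 0.30. NDUFV2-AS1 was at 0.33 in knockdown cells and −1.09 in control cells in the authors' deposited tables and had a centred difference of 1.44. NDUFV2, on the other strand, had a centred difference of −0.12. Whether the counting used strand is not given in the sources used here, so reads of NDUFV2 and its antisense RNA may not be separable. The read-through NDUFC2-KCTD14, which overlaps NDUFC2 so that reads of the pair may not be separable, was at 0.06 in knockdown cells and −0.06 in control cells in the authors' deposited tables. Of the 49 genes 20 had several transcripts, and in 14 of those they differed by 1 or more within a table, where 68.5% of all genes with several transcripts did so. The count of 14 is near that share.

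**Figure D3:**
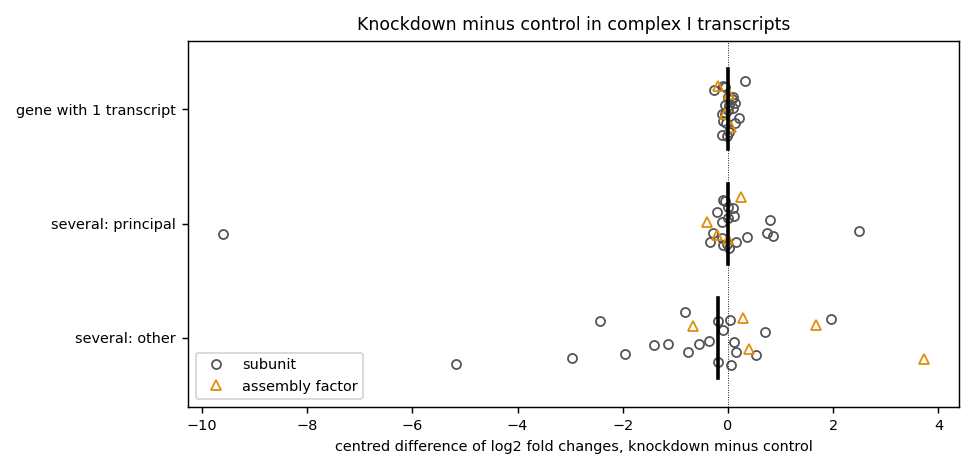
Centred difference of the log2 fold changes, RBMS1 knockdown minus control, of complex I transcripts, grouped by whether the gene has 1 listed transcript or several and whether the transcript is paired with a GENCODE principal transcript. Circles are subunits, triangles assembly factors and black bars medians; genes with 1 transcript lie between −0.27 and 0.32, while other transcripts reach −5.17 and 3.73 and 1 principal transcript lies at −9.59.

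The transcripts of these genes did not move together. NDUFB8, of the distal membrane arm, had its principal transcript NM_005004 at 0.39 in knockdown cells and 0.31 in control cells in the authors' deposited tables. Its NM_001284367, which lacks 90 coding bases of NM_005004, was at −2.83 in knockdown cells and 2.35 in control cells in the authors' deposited tables. A further NDUFB8 form, NM_001284368, was at 0.08 in knockdown cells and 1.498 in control cells in the authors' deposited tables. NDUFB8 was therefore close between the cell populations in its principal transcript and far apart in the others. NDUFB3, of the same arm, had NM_002491 at 0.30 in knockdown cells and 0.52 in control cells in the authors' deposited tables. Its NM_001257102, with a coding sequence of the same 294 bases in length, was at 1.72 in knockdown cells and −0.76 in control cells in the authors' deposited tables.

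NDUFC1, of the proximal membrane arm, had 5 transcripts, all with a coding length of 228 bases. Its NM_001184990 was at −0.52 in knockdown cells and 9.09 in control cells in the authors' deposited tables. Its NM_001184987, which is paired with the same GENCODE transcript of 725 bases, was at 1.01 in knockdown cells and 0.29 in control cells in the authors' deposited tables. The other NDUFC1 transcripts lay between −0.10 and 0.76 in knockdown cells and between −0.01 and 0.40 in control cells in the authors' deposited tables. A pair of accessions of 1 transcript model thus had opposite orders between the cell populations, and how reads were divided between them is not given in the sources used here.

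NDUFA2, of the matrix arm, had NM_002488 at 0.22 in knockdown cells and 0.52 in control cells and NM_001185012 at −0.43 in knockdown cells and 0.14 in control cells in the authors' deposited tables. Its non-coding NR_033697 was at −1.08 in knockdown cells and 1.38 in control cells in the authors' deposited tables. NR_033697 is paired with the same GENCODE transcript as NM_002488. NDUFB9, of the distal membrane arm, had NM_005005 at 0.43 in knockdown cells and 0.30 in control cells in the authors' deposited tables. Its NM_001278645 was listed for knockdown cells alone, at 8.40 in the authors' deposited table, and NM_001311168 was at −0.0042 in knockdown cells and 1.15 in control cells in the authors' deposited tables. NM_001278645 and NM_001311168 of NDUFB9 are likewise paired with the same GENCODE transcript. How reads were divided between accessions of 1 transcript model is not given in the sources used here. With no abundance in the tables it cannot be seen how many reads extreme values such as 8.40 rest on.

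The same counts were made over transcripts. In knockdown cells 7 of 81 transcripts were at 1 or above (8.63% of all transcripts) and 4 at −1 or below (13%). In control cells 11 of 79 were at 1 or above (8.29%) and 3 at −1 or below (13.8%). Principal transcripts were tighter than the others by the interquartile range, and much less so by the standard deviation. For subunits and assembly factors, the interquartile range of the centred difference was 0.20 over 50 principal transcripts and 1.09 over 25 others, beside 0.41 and 0.98 over all genes. The standard deviation was 1.43 over the principal transcripts and 1.70 over the others, beside 1.18 and 1.94 over all genes. All the others come from genes with several transcripts, whose principal transcripts had an interquartile range of 0.26. Of the 50 principal transcripts 1 was at 1 or above and 1 at −1 or below, where 11.3% of all principal transcripts were past 1 in size. Of the 25 others 3 were at 1 or above and 6 at −1 or below, where 29% of all other transcripts were past 1 in size. NDUFS5, a membrane-arm subunit, shows the opposite case: its transcripts differed by at most 0.14 within a table.

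Some of the transcripts that stood apart lack 1 coding exon, and these exons are shown because they are where the coding sequences of these forms part. The forms also differ outside these exons. Relative to the full form of its gene, NM_001258338 of NDUFA12 lacks 148 bases in all, NM_001282422 of NDUFA5 469, NM_001199987 of NDUFB6 627 and NM_182739 of NDUFB6 700, so a value cannot be tied to the exon alone. Coordinates are GRCh38, from GENCODE release 29, the exon is in capitals and 15 bases of the neighbouring exons on each side are in lower case, on the strand of the gene. The sequence of NDUFA12 exon 3 of 4 (88 bases, chr12:94994170-94994257, minus strand) is missing from NM_001258338. NDUFA5 exon 3 of 5 (117 bases, chr7:123550470-123550586, minus strand) is missing from NM_001282422. NDUFB6 exon 2 of 4 (93 bases, chr9:32570960-32571052, minus strand) is missing from NM_001199987 and exon 3 (45 bases, chr9:32558910-32558954, minus strand) from NM_182739.
NDUFA12 exon 3: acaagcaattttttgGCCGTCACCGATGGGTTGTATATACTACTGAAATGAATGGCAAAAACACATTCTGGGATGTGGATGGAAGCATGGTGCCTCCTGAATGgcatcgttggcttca
NDUFA5 exon 3: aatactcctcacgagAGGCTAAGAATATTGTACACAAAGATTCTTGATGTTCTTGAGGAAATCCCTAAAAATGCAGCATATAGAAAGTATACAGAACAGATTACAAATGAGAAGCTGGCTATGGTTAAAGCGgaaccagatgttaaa
NDUFB6 exon 2: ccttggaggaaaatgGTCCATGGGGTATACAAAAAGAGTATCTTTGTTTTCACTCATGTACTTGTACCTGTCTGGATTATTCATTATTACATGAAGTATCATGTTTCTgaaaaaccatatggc
NDUFB6 exon 3: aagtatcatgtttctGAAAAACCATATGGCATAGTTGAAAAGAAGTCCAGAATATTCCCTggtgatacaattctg

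NDUFA12 and NDUFA5 had higher values in the form that lacks the exon than in the full form, with either shRNA. NDUFA12, a matrix-arm subunit, was at 1.75 in knockdown cells and 1.06 in control cells in the form without exon 3 and at 0.38 in knockdown cells and 0.49 in control cells in the form with it in the authors' deposited tables. Its 88 bases are no multiple of the codon length, so the frame shifts where the exon is skipped. NDUFA5, also of the matrix arm, was at 1.51 in knockdown cells and 1.496 in control cells without exon 3, whose loss keeps the frame, in the authors' deposited tables. With the exon NDUFA5 was at 0.44 in knockdown cells and 0.44 in control cells in the authors' deposited tables. Its non-coding NR_104168 was at 0.58 in knockdown cells and 0.44 in control cells and NR_104169 at −1.14 in knockdown cells and −0.36 in control cells in the authors' deposited tables, so the skipped form was the highest of its transcripts in both cell populations.

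NDUFB6, of the distal membrane arm, had transcripts that moved in opposite directions. Without exon 2 it was at −1.62 in knockdown cells and 1.36 in control cells in the authors' deposited tables. Without exon 3 it was at 2.30 in knockdown cells and 0.36 in control cells in the authors' deposited tables. The full form NM_002493 was at 0.46 in knockdown cells and −0.38 in control cells in the authors' deposited tables. The NDUFB6 gene means, 0.38 in knockdown cells and 0.45 in control cells, show none of this.

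NDUFB5, of the distal membrane arm, was listed in 3 coding forms. The full NM_002492 was at −0.07 in knockdown cells and −0.41 in control cells in the authors' deposited tables. The forms that lack coding exons were higher, NM_001199957 at 0.68 in knockdown cells and 0.90 in control cells and NM_001199958 at 0.82 in knockdown cells and 1.02 in control cells in the authors' deposited tables. NM_001199957 also has 3150 bases that NM_002492 lacks, and a 3′UTR of 3607 bases against 457. Its value thus cannot be tied to the exons alone. Not every form that lacks a coding exon was higher. NM_001199983 of NDUFS1, without exon 3 and lacking 9188 bases in all, was at 0.02 in knockdown cells and −0.01 in control cells in the authors' deposited tables. It was below the principal NM_005006 with either shRNA. NM_001039375 of NDUFAF5, without exon 5, was above its principal transcript with either shRNA. NM_001083946 of NDUFAF7, which lacks 2 coding exons, was above it in knockdown cells alone. NDUFV1 had NM_007103 at 0.43 in knockdown cells and 0.45 in control cells in the authors' deposited tables. Its NM_001166102, which lacks 27 of those coding bases, was at 0.63 in knockdown cells and 1.46 in control cells in the authors' deposited tables.

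Complex I mRNAs are short. For 46 genes with a paired coding transcript and a 3′UTR of at least 20 bases, the median coding length was 463.5 bases and the median 3′UTR 189.5 bases, against 1359 and 1029 over 11523 genes. Subunits had a median coding length of 427.5 bases and a 3′UTR of 160.0, and assembly factors 766.5 and 548.0. Within complex I genes shorter coding sequences went with higher values. Across genes, which are not independent replicates, Spearman's rho between coding length and the value of that transcript was −0.43 in knockdown cells (45 genes) and −0.54 in control cells (46 genes). Over all genes it was −0.16 in knockdown cells and −0.25 in control cells. Coding length had the largest rho of the features compared. For 3′UTR length rho was −0.20 in knockdown cells and −0.22 in control cells, near the −0.19 and −0.20 over all genes. For transcript length it was −0.37 in knockdown cells and −0.36 in control cells, against −0.21 and −0.27. For GC content it was 0.31 in knockdown cells and 0.29 in control cells, against 0.13 and 0.06. Subunits and assembly factors differ in coding length as well as in their values, and the part of length in that gap was not tested.

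**Figure D4:**
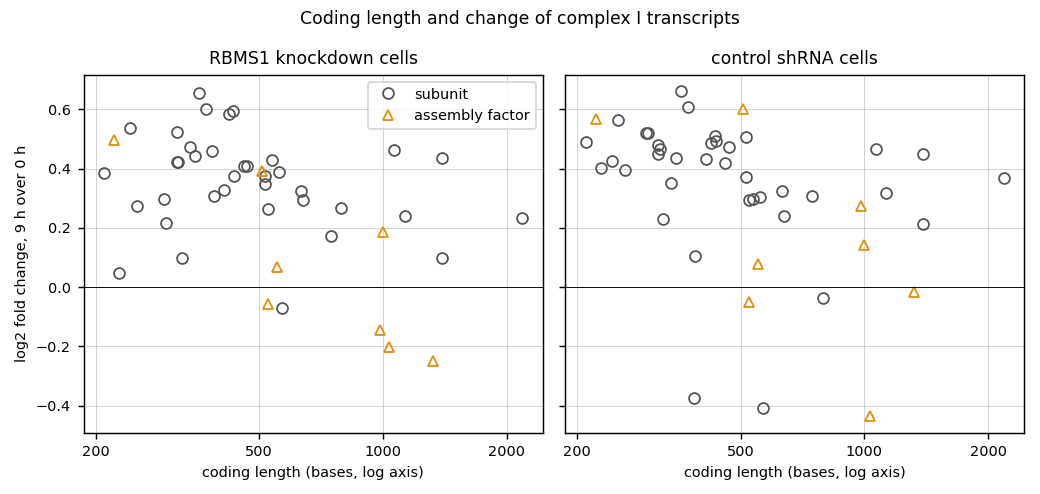
Log2 fold change, 9 h over 0 h, of 1 coding transcript per complex I gene against its coding length in bases (log axis), in RBMS1 knockdown cells (left) and control cells (right), with circles for subunits and triangles for assembly factors. The longer assembly factors are among the lowest points, and rho was −0.43 in knockdown cells and −0.54 in control cells.

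RBMS1 is known to bind AU-rich RNA with the core AUAUA. This motif (ATATA on the mRNA's strand) was in the 3′UTR of 16 of the 46 genes (34.8%), against 32.2% of 3′UTRs of similar length and 57.0% of all 3′UTRs. The AU-rich element core ATTTA was in 22 of 46 (47.8%), against 40.5% at similar length. Complex I genes with ATATA had a median centred difference of −0.03 (16 genes) and those without −0.01 (29 genes), where all genes had −0.01 with and 0.02 without it. A match describes the letters and does not show binding. In 3′UTRs under 200 bases ATATA was found in NDUFAF1, NDUFB10, NDUFB3 and NDUFC1. The first match in each is shown with 12 bases on each side and the motif in capitals, since most 3′UTRs of this length lack it. The windows are at chr15:41387374-41387402 (minus strand) for NDUFAF1, chr16:1961944-1961972 (plus strand) for NDUFB10, chr2:201085722-201085750 (plus strand) for NDUFB3 and chr4:139289992-139290020 (minus strand) for NDUFC1, in GRCh38.
NDUFAF1: gcatctacaatgATATAgacaaaataaaa
NDUFB10: actgttgctgaaATATAaagccctgcaac
NDUFB3: taatcaattaaaATATAtatatatgccaa
NDUFC1: agttatatgtgaATATAtatcaagccagc

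The transcripts that hold these windows had no common value of the difference. NM_016013 of NDUFAF1 was at −0.14 in knockdown cells and 0.28 in control cells in the authors' deposited tables. Its centred difference was −0.40. NDUFB10, a distal membrane-arm subunit, was at 0.38 in knockdown cells and 0.51 in control cells in the authors' deposited tables. Its centred difference was −0.11. For NM_002491 of NDUFB3 the centred difference was −0.21. The other NDUFB3 transcript, NM_001257102, holds ATATA in its 3′UTR but not the same window. Its centred difference was 2.498, so the NDUFB3 transcripts with the motif differed in opposite directions. All 5 NDUFC1 transcripts hold the window, and the 4 of them in both tables had centred differences of −9.59, −0.34, 0.74 and 0.79. Within NDUFC1 the same site thus stood in transcripts that differed in both directions.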

How the data were processed

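Total RNA of SW480 cells was sequenced in 8 libraries. The submitters' processing notes list STAR 2.5, Cufflinks and Cuffdiff, and hg38 as the build, with no roles. The authors deposited 1 log2 fold change per RefSeq transcript in each of 2 tables. Base 2 was assumed because Cuffdiff writes it. How libraries were normalised and which transcripts were left out is not given in the sources used here. Depth per sample is unknown, so no interval or test was possible.

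Accessions were paired with symbols through the RefSeq gene table (GRCh38.p14), then GENCODE release 29; 131 had none. NDUFA4 and NDUFA4L2 kept their GENCODE symbols. Transcript values were averaged per gene, and a size of 1 (a 2-fold change) was counted. Principal transcripts are those GENCODE tags as such through APPRIS: 52 rows of complex I genes, with 27 others and 1 unpaired (NDUFA6). Lengths, exons and motifs came from GENCODE 29. Python 3.11.15, pandas 2.3.3, scipy 1.17.1 (rank correlations) and matplotlib 3.10.9 were used. The median calculation was also run on simulated data with a constant shift in complex I genes. Recovery of that shift follows from the set-up, so the run checks the code alone.

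Named were the core subunits (1 gene that the rule names is not reported here, and it stays in counts and medians), all NDUFAF genes, NDUFA4 and NDUFA4L2, the 6 lowest and 6 highest of the other subunits by the mean of both tables, the 6 with the largest difference, members with a transcript at 1 or more in size or with transcripts 1 or more apart or listed in 1 table, and the ends of each pathway list. Complex I genes, lists and rules were chosen with earlier results of these data known.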

Additional observations from a re-analysis of the deposited data

How the results depend on the processing

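No paired analysis was possible because the authors combined the libraries of a group into 1 value for each transcript, and for the same reason no replicate was left out. The depth behind single values is unknown. Over the 945 gene values recomputed, 729 moved by less than 0.1 on the log2 scale, 208 moved by 0.1 or more and 8 changed sign from a size of 1 or more. The fold changes of the 29 genes with 1 listed transcript cannot move where only the choice of transcripts changes. With ribosomal protein mRNAs as the zero, all fold changes of a cell population shift by the same amount. The 729 therefore include values fixed in advance and do not measure robustness. Sign changes of any size numbered 98, of which 35 came with ribosomal protein mRNAs as the zero, and 27 of the other 63 had both values past 0.1 in size. The cause of these moves was not tested, beyond the choice of transcripts itself.

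With ribosomal protein mRNAs as the zero, the median of complex I genes was −0.0238 in knockdown cells and 0.0214 in control cells. With the transcript of smallest change it was 0.32 in control cells. The subunit minus assembly factor gap in knockdown cells was 0.26 with medians over transcripts, 0.30 with transcripts as units and 0.38 with principal transcripts. In control cells it was 0.25 with the smallest change, 0.29 with coding accessions, 0.0792 with 1 listed transcript, 0.31 with the other assembly factors added, 0.31 with principal transcripts and 0.31 without NDUFB9, NDUFC1 and NDUFAF5. For the centred difference it was 0.0230 with 1 listed transcript and 0.0298 with principal transcripts, against −0.0786.

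Genes at 1 or above in knockdown cells were 0 with the smallest change, 0 with 1 listed transcript, 7 with transcripts as units, 1 relative to ribosomal proteins, 10 at a size of 0.5 and 1 with principal transcripts. Those at −1 or below were 4 with transcripts as units, 1 relative to ribosomal proteins and 1 at a size of 0.5. In control cells those at 1 or above were 1 with medians over transcripts, 0 with the smallest change, 0 with 1 listed transcript, 11 with transcripts as units, 1 relative to ribosomal proteins, 18 at a size of 0.5 and 1 with principal transcripts. Those at −1 or below were 1 with medians, 1 with the smallest change, 0 with coding accessions, 1 with 1 listed transcript and 0 with principal transcripts. Centred differences at 1 or above were 1 with the smallest change, coding accessions, 1 listed transcript or principal transcripts, and 5 with transcripts as units. Those at −1 or below were 1 with medians, 0 with the smallest change, 0 with 1 listed transcript, 7 with transcripts as units and 1 with principal transcripts.

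With the transcript of smallest change NDUFB9 was at −0.0042 in knockdown cells and NDUFC1 at −0.0139 in control cells, and the centred difference was −0.21 for NDUFB3 and 0.10 for NDUFB8. With coding accessions NDUFAF5 was at 0.18 in control cells, with a centred difference of −0.20. With principal transcripts the centred difference of NDUFB8 was 0.10, and with medians over transcripts that of NDUFC1 was 0.20. Use of principal transcripts, and leaving out NDUFB9, NDUFC1 and NDUFAF5, were chosen after seeing the data.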
